A study of Mus musculus with 23 samples.

Results

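The miR-17-92 and miR-106b-25 clusters are 2 groups of microRNAs, each cut from 1 primary transcript, and their levels were followed in 2 sorted lung cell types across 6 stages of mouse lung development. The rule named 9 mature microRNAs by identifier, and 8 of the 602 microRNA rows of the table carried one of them. They were 5 of miR-17-92 (miR-18a-5p, miR-19a-3p, miR-20a-5p, miR-19b-3p and miR-92a-3p) and all 3 of miR-106b-25 (miR-106b-5p, miR-93-5p and miR-25-3p). miR-17-5p had no row in the table as used here, alone or in a joint identifier. All 8 members passed the background filter, as 302 of the 602 rows did.

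All cells came from lungs of C57BL6 mice that the labels give as WT, with no treatment named. Endothelial cells (EC, whose sample descriptions name CD31) line the blood vessels, and type II pneumocytes (AT2, whose descriptions name CD326) make surfactant in the alveolus. The labels use the name AT2 at every stage, also at those before birth. The stages were E16.5 and E18.5, embryonic days, and P1, P7, P14 and P28, days after birth, with 13 AT2 samples and 10 EC samples. AT2 cells had 2 samples per stage and 3 at P28, while EC had 2 per stage and 1 each at E18.5 and P1. The mix of cells in a sorted sample was not measured, so a lower signal from fewer cells that hold a microRNA and from less of it per cell cannot be told apart. Endothelial, epithelial and blood cell marker microRNAs could not be matched by name in the tables used here, so the labelled cell types were not checked against them.

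A microRNA is a short RNA that guides a silencing complex to messenger RNAs, mainly through pairing of its bases 2 to 8, the seed. The miR-17-92 cluster is known as an oncogene cluster driven by MYC and E2F factors and abundant in dividing progenitors, also in the early lung, where its transgenic overexpression in lung epithelium is known to favour proliferation over differentiation. miR-106b-25 is its paralogue, carried in an intron of Mcm7, a subunit of the replicative helicase. Members of a seed family share known targets: the miR-17 and miR-106b group represses Cdkn1a and E2f genes, and miR-92a and miR-25 repress Bcl2l11, which promotes apoptosis.

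The mature sequences are shown because the members fall into 4 seed groups that cross the cluster boundary, and because several are near copies of each other. They are given from 5′ to 3′ as in RefSeq, with the seed in capitals. The first seed, of which RefSeq lists 7 mouse mature microRNAs among 1679, is shared by both clusters.

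miR-17-5p: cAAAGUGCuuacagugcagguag
miR-20a-5p: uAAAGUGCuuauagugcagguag
miR-106b-5p: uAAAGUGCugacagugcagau
miR-93-5p: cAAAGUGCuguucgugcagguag

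The second seed differs from the first by 1 base and belongs to miR-18a-5p alone among the members. The third is the miR-19 seed, and the last joins the final member of each cluster.

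miR-18a-5p: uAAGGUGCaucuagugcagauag
miR-19a-3p: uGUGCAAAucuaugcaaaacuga
miR-19b-3p: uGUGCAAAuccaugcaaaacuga
miR-92a-3p: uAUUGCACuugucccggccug
miR-25-3p: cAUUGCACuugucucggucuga

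Counted from the 5′ end, miR-19a-3p and miR-19b-3p differ only at position 11 (U11C), and miR-92a-3p and miR-25-3p differ at 3 of 21 compared positions (U1C, C14U and C18U). miR-20a-5p differs from miR-20b-5p, a microRNA of the paralogous miR-106a-363 cluster, at 2 positions (U1C and U10C). miR-17-5p, which has no row, differs from miR-106a-5p of that cluster at 1 of 23 positions (U10A) and shares its seed. Whether the probe of one such microRNA also read its near copy was not tested, so the readings of miR-19a-3p, miR-19b-3p and miR-20a-5p are uncertain in that respect.

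In the GRCm38.p6 annotation the 6 hairpins of miR-17-92 lie on the plus strand at chr14:115043671-115044506, a span of 836 bases, in the order miR-17, miR-18a, miR-19a, miR-20a, miR-19b and miR-92a. The 3 hairpins of miR-106b-25 lie on the minus strand at chr5:138165321-138165818, 498 bases within the span of the protein-coding gene Mcm7 (chr5:138164583-138172111). miR-19b-3p and miR-92a-3p are also cut from hairpins on chromosome X (Mir19b-2 and Mir92-2), so their signals can hold RNA of both loci.

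The measured value is the nCounter count of a probe, multiplied in the deposited table by 1 factor per sample (0.296 to 7.93), and is called the signal here. Recovered microRNA counts ranged from 26640 to 571706 per sample. A signal was above background where its count exceeded the mean plus 2 SD of 8 control rows, a limit of 6.16 to 95.1 on the signal scale. The control rows were the 8 of 14 ERCC rows with the lowest mean over these samples. They were taken as negative controls from their values, and the sources used here do not name them so. Of the members, 6 were above background in all 23 samples. miR-18a-5p was above it in 12 of 13 AT2 and 6 of 10 EC samples, and miR-92a-3p in 6 and 2. In AT2 P28 replicate 1, the sample with 26640 counts, the limit was only 1 count and miR-18a-5p had 2, so that detection is weak. Probes differ in efficiency, so signals are compared between samples and not between members.

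Every member except miR-92a-3p started high at E16.5 and was lower afterwards, in both cell types. The 2 E16.5 samples exceeded every later sample of their cell type for 7 of the 8 members in AT2 cells and for the same 7 in EC, against 12.6% and 14.6% of all 302 tested microRNAs. With samples aligned on their median signal the counts were 5 and 4 of 8, against 6.62% and 9.27% of all.

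Fitted differences come from limma on log2(signal + 1), in which fold changes of low microRNAs are understated, with Benjamini-Hochberg adjustment over all 302 and a threshold of 0.05. Late stands for P7, P14 and P28 (7 AT2 and 6 EC samples) and early for E16.5 and E18.5 (4 and 3). EC had 1 sample each at E18.5 and P1, so a fit without one of them loses that stage. Without EC E18.5 replicate 1, early in EC is E16.5 alone, while early in AT2 cells keeps both stages. Comparisons of AT2 cells with EC then leave the lost stage out in both cell types. Within a cell type and stage each sample title carries its own specimen ID. Nothing in the labels says that these IDs are separate animals, so the spread behind the p-values may not be that between animals. From early to late, all 8 members were called lower in AT2 cells (adjusted p under 0.05), as were 40.1% of all tested microRNAs. In EC 6 of 8 were called lower, as were 27.8% of all, and 7 of 8 had a difference below 0. The members' median log2 difference was -1.18 in AT2 cells and -1.13 in EC, and the median of all tested microRNAs was itself below 0, at -0.64 and -0.57.

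miR-18a-5p (MIMAT0000528), whose seed is 1 base off that of miR-17-5p, had the log2 difference farthest below 0 of the members in both cell types on the deposited scale. With quantile normalization the AT2 values of miR-19a-3p (-1.71) and miR-20a-5p (-1.49) lay beyond its own (-1.44). In AT2 cells its signal was 176 and 199 at E16.5, 70.5 and 61.95 at E18.5, 33.6 and 24.6 at P1, 27.5 and 16.7 at P7, 16.4 and 19.6 at P14, and 14.9, 28.5 and 19.1 at P28. In EC it was 174 and 247 at E16.5, then 103 and 40.2 in the single samples of E18.5 and P1, 52.0 and 38.3 at P7, 32.9 and 20.9 at P14, and 19.3 and 14.4 at P28. In both cell types every late sample was below every early one. The last 4 EC values and 1 AT2 value at P28 were not above background, so those levels are only bounded from above. The log2 difference from early to late was -2.43 ± 0.27 (SE) in AT2 cells (limma, adjusted p = 5.51e-07) and -2.39 ± 0.31 in EC (adjusted p = 1.60e-05). The size of these differences rests on late signals near or below background. With the background mean subtracted they were -2.69 and -4.34, and with all signals under 95.1, the highest background limit of any sample, raised to that limit they were -0.48 and -0.61, each still past the threshold.

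The miR-19 pair followed. miR-19a-3p (MIMAT0000651) in AT2 cells read 3593 and 4121 at E16.5, 2079 and 1752 at E18.5, 1230 and 1289 at P1, 782 and 727 at P7, 736 and 680 at P14, and 892, 907 and 910 at P28. In EC it read 3722 and 4215 at E16.5, then 1459 and 1223 in the single samples of E18.5 and P1, 1416 and 1149 at P7, 706 and 592 at P14, and 397 and 566 at P28. Every late sample lay below every early one in both cell types, as 75 of all 302 tested microRNAs did in AT2 cells and 48 in EC, counting those lower late. The log2 difference was -1.79 ± 0.19 in AT2 cells (limma, adjusted p = 3.04e-07) and -1.71 ± 0.22 in EC (adjusted p = 1.60e-05). At E16.5 the readings of the 2 cell types overlapped, and at P28 the 3 AT2 readings lay above both of EC.

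miR-19b-3p (MIMAT0000513), which differs from miR-19a-3p by 1 base, had a log2 difference closer to 0. Its 4 early AT2 signals were 1773, 1287, 657 and 600, and its 7 late ones ran from 332 to 610 with a median of 374. In EC the 3 early signals were 995, 1415 and 674 and the 6 late ones ran from 239 to 964 with a median of 376. Early and late values overlapped in both cell types, through AT2 P28 replicate 1 (610) and EC P7 replicate 1 (964). Its log2 difference was -1.20 ± 0.25 in AT2 cells (limma, adjusted p = 0.000512) and -1.11 ± 0.29 in EC (adjusted p = 0.00725).

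**Figure D1:**
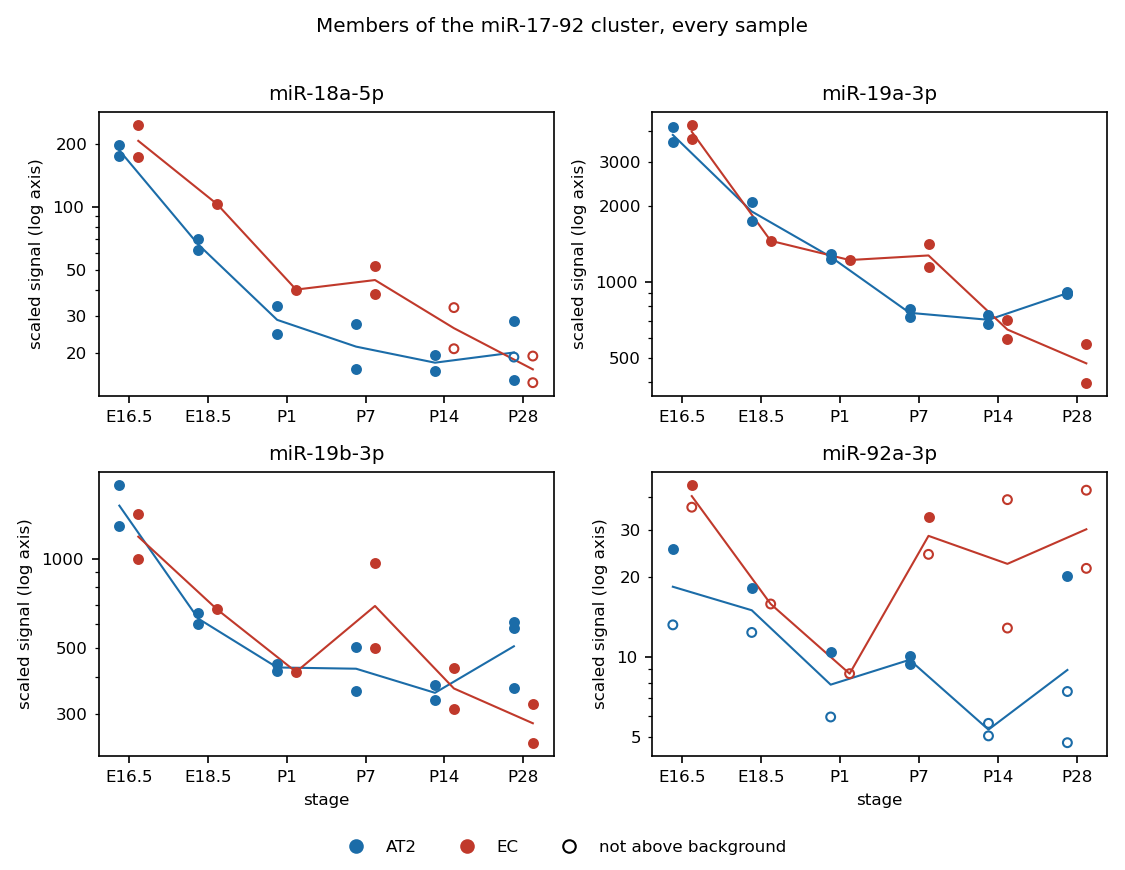
Signal (log axis) of 4 members of miR-17-92 at the 6 stages, with 1 point per sample, lines through the geometric means of each stage, AT2 cells in blue and EC in red, and open points for samples not above background. miR-18a-5p and miR-19a-3p descend from E16.5 to the late stages in both cell types with no early sample below a late one, while most points of miR-92a-3p are open.

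The members with the miR-17 seed were miR-20a-5p, miR-106b-5p and miR-93-5p. miR-20a-5p (MIMAT0000529) in EC read 13492 and 11261 at E16.5, then 6437 and 2496 in the single samples of E18.5 and P1, 2900 and 2674 at P7, 3455 and 2026 at P14, and 2099 and 1668 at P28. In AT2 cells it read 4536 and 4479 at E16.5, 2749 and 2091 at E18.5, 1034 and 1248 at P1, 936 and 1236 at P7, 2839 and 1150 at P14, and 1182, 971 and 1160 at P28. All EC samples before birth were above all later EC samples. In AT2 cells 1 late sample, P14 replicate 1 (2839), reached the early range.

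The fall of miR-20a-5p from early to late was -1.89 ± 0.29 on the log2 scale in EC (limma, adjusted p = 7.45e-05) and -1.35 ± 0.25 in AT2 cells (adjusted p = 0.000166). Without AT2 P14 replicate 1 the latter was -1.57 (adjusted p = 1.14e-05). The decline in AT2 cells minus that in EC was 0.54 ± 0.38 (adjusted p = 0.574), so a difference in the size of the decline was not detected. Its value was 0.33 without AT2 P14 replicate 1. Without EC E18.5 replicate 1, where early in EC is E16.5 alone, it was 1.01 (limma, adjusted p = 0.142), a comparison of unlike early stages.

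miR-106b-5p and miR-93-5p, neighbours in the Mcm7 intron, had like profiles. miR-106b-5p (MIMAT0000386) was 475 and 574 in AT2 cells at E16.5 and 464 and 555 in EC. Late AT2 samples ran from 113 to 245 (median 164) and late EC samples from 88.5 to 456 (median 223). The late EC range held both P7 samples, at 456 and 388, close to the E16.5 values, and EC P14 replicate 2 at 88.5. Its log2 difference was -1.04 ± 0.27 in AT2 cells (limma, adjusted p = 0.00429). In EC it was -0.71 ± 0.32, which did not pass (adjusted p = 0.0800). It passed without EC P14 replicate 1 (-0.98) or without EC E18.5 replicate 1 (-1.21, adjusted p = 0.0185), where early in EC is E16.5 alone. It was -0.43 (adjusted p = 0.156) without EC P14 replicate 2, and the adjusted p was up to 0.184, without EC E16.5 replicate 2.

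miR-93-5p (MIMAT0000540) was 391 and 270 in AT2 cells at E16.5 and 345 and 450 in EC, and stood at 88.7 and 99.1 in AT2 cells and at 143 in EC at E18.5. The lowest AT2 readings of miR-93-5p were the P1 samples, 29.0 and 42.9, and the lowest EC reading was P14 replicate 2, 43.5. From early to late miR-93-5p fell by 1.17 on the log2 scale in AT2 cells (SE 0.29, limma, adjusted p = 0.00305) and by 1.15 in EC (SE 0.34, adjusted p = 0.0170). In EC the call was lost without EC E16.5 replicate 2 (-1.06). Without EC E18.5 replicate 1, which leaves E16.5 as the only early EC stage, the difference was -1.88.

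**Figure D2:**
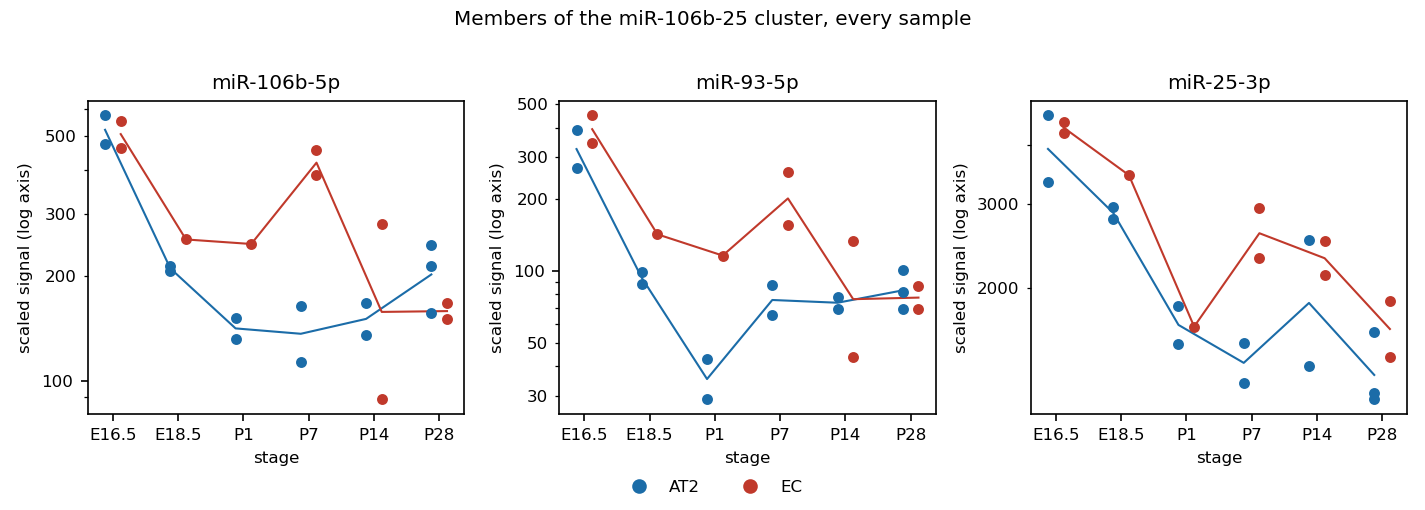
Signal (log axis) of the 3 members of miR-106b-25 at the 6 stages, drawn as 1 point per sample with lines through the geometric means, AT2 cells in blue and EC in red. On the deposited scale the E16.5 samples are the highest of each cell type in all 3 panels, the EC samples at P7 stand above the AT2 samples at P7, and the EC samples at P14 lie far apart for miR-106b-5p and miR-93-5p.

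The last seed group holds miR-25-3p and miR-92a-3p, the final members of the clusters. miR-25-3p (MIMAT0000652) read 4604 and 3330 in AT2 cells at E16.5, 2955 and 2792 at E18.5, 1525 and 1828 at P1, 1259 and 1533 at P7, 2525 and 1366 at P14, and 1613, 1198 and 1164 at P28. In EC it read 4219 and 4468 at E16.5, then 3448 and 1656 in the single samples of E18.5 and P1, 2938 and 2306 at P7, 2504 and 2124 at P14, and 1872 and 1432 at P28. No late sample reached an early one in either cell type. The log2 difference was -1.16 ± 0.22 in AT2 cells (limma, adjusted p = 0.000224) and -0.85 ± 0.25 in EC (adjusted p = 0.0170), a call lost without EC E16.5 replicate 2 (-0.83, adjusted p = 0.0504).

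miR-92a-3p (MIMAT0000539) was near background throughout, with signals of 4.77 to 25.6 in AT2 cells and 8.67 to 44.4 in EC. Its log2 difference from early to late was -1.0 ± 0.40 in AT2 cells (limma, adjusted p = 0.0440) and 0.08 ± 0.46 in EC (adjusted p = 0.886). The call in AT2 cells was lost in 12 of the 23 fits that leave out 1 sample, with -0.77 and an adjusted p of 0.180 without AT2 E16.5 replicate 1. With all signals under 95.1 raised to that limit, no difference was left to measure. The depth does not allow a course to be given for miR-92a-3p.

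Within a sample the signals of 2 members can be set against each other without any scaling factor. The log2 ratio of miR-25-3p to miR-106b-5p was 3.14 ± 0.69 in late and 3.34 ± 0.58 in early AT2 samples (SD, n = 7 and 4, difference -0.19, two-sided exact permutation test, p = 0.639). In EC it was 3.28 ± 0.73 and 3.32 ± 0.39 (n = 6 and 3, difference -0.03, exact permutation p = 0.940). Over the 9 specimen IDs that both cell types carry, it was higher in AT2 cells in 5, by a mean of 0.06 (exact sign-flip permutation p = 0.754). The adjusted p over these 3 tests was 0.940 for each, and no shift between the first and last member of miR-106b-25 was detectable against this spread. The matching ratio of miR-92a-3p to miR-17-5p was not analysed here, since miR-17-5p had no row.

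From E16.5 to E18.5, between the embryonic stages, all 8 members had log2 differences below 0 in both cell types, with a median of -1.14 in AT2 cells (range -1.78 for miR-93-5p to -0.28 for miR-92a-3p) and -1.0 in EC (range -1.46 for miR-93-5p to -0.33 for miR-25-3p). All tested microRNAs had a median of 0.14 and 0.11 in these steps. In both cell types every E16.5 sample carries one title prefix (the first number of the sample title) and every E18.5 sample the other. Stage and title prefix therefore cannot be told apart in this step. None of the 8 passed after adjustment (limma), against 0.662% of all in AT2 cells and 0% in EC, and 6 and 2 members had an unadjusted p under 0.05, as did 24 and 44 of all 302. By edgeR with TMM factors none passed either, against 0% of all in both cell types. Unadjusted, 5 and 3 members had a p under 0.05 by edgeR, a count not given here for all 302. In AT2 cells the adjusted p of the members ran from 0.116 for miR-93-5p to 0.879 for miR-92a-3p. EC had 1 sample at E18.5, whose spread was assumed to be that of the other groups. Without EC P14 replicate 2, adjusted p-values in this step were 0.0151 for miR-93-5p and 0.0424 for miR-106b-5p in AT2 cells and 0.0417 for miR-19a-3p in EC. Without EC P14 replicate 1 they were 0.0153, 0.0440 and 0.0423. With all signals under 95.1 raised to that limit, miR-18a-5p, miR-19a-3p and miR-93-5p passed in both cell types (adjusted p from 0.000234 to 0.00707). With quantile normalization miR-19b-3p passed in AT2 cells (-1.50, adjusted p = 0.0176), and with background subtracted miR-19a-3p passed in EC (-1.47, adjusted p = 0.0293).

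From E18.5 to P1 all 8 differences were again below 0 in both cell types, with medians of -0.81 in AT2 cells and -0.75 in EC, beside -0.63 and -0.71 over all tested microRNAs. At this step the members' medians were close to those of all microRNAs. Stage and title prefix also cannot be told apart from E18.5 to P1 and from P1 to P7, nor in AT2 cells from P7 to P14. From P1 to P7 the members' median was -0.06 in AT2 cells and 0.70 in EC, where all 8 differences were above 0. From P7 to P14 it was -0.07 in AT2 cells and -0.83 in EC, where all 8 were below 0, and from P14 to P28 it was 0.26 and -0.42. Over all tested microRNAs the medians from P1 to P7, P7 to P14 and P14 to P28 were -0.28, 0.15 and 0.20 in AT2 cells. In EC those medians were 0.35, 0.08 and 0.007. No member passed at any of these 8 steps by limma or edgeR. Of all tested microRNAs 8.61%, 0.662%, 0% and 1.99% passed at the successive steps in AT2 cells and 1.32%, 0.331%, 0% and 2.65% in EC (limma). Unadjusted p-values under 0.05 by limma went to 4 members in AT2 cells and 3 in EC from E18.5 to P1, to 2 and 1 from P1 to P7, to 0 and 4 from P7 to P14, and to 0 in both from P14 to P28. Of all 302 tested microRNAs they went to 101 and 67, 65 and 39, 22 and 43, and 55 and 38 at the same steps. Asked for any difference among the 6 stages, a moderated F-test passed for 7 of 8 members in AT2 cells, where 49.0% of all tested microRNAs passed, and for 7 of 8 in EC, where 27.2% did. miR-92a-3p was the exception in both (limma, adjusted p = 0.226 and 0.254). With edgeR 5 members passed in AT2 cells and 4 in EC, beside 152 and 79 of all 302 tested microRNAs. The F-test of miR-25-3p in EC (adjusted p = 0.0386) did not pass in 10 of 23 fits that leave out 1 sample, with 0.130 without EC E16.5 replicate 2. Without that sample the F-tests of miR-106b-5p (adjusted p = 0.0820), miR-19b-3p and miR-93-5p (0.0505 each) in EC were lost too, and that of miR-106b-5p also without EC E16.5 replicate 1 (0.0543) or EC P7 replicate 1 (0.0557). In AT2 cells the F-test of miR-19b-3p was lost without AT2 E16.5 replicate 1 (0.0525) and that of miR-106b-5p without AT2 E16.5 replicate 2 (0.0973).

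The size of the fall from early to late depended on the scaling. Aligning samples on their median moved the median of all tested differences from -0.64 to 0.24 in AT2 cells and from -0.57 to 0.04 in EC. Read relative to the median of all tested microRNAs in the same fit, miR-18a-5p had -1.79 (AT2 cells) and -1.83 (EC), miR-19a-3p -1.15 in both, and miR-20a-5p -0.71 and -1.33. Under median alignment and under edgeR's quasi-likelihood test with TMM factors on the recovered counts, miR-18a-5p and miR-19a-3p were called lower in both cell types and miR-20a-5p in EC. In AT2 cells miR-20a-5p had -0.47 (adjusted p = 0.160) with median alignment and -0.72 (adjusted p = 0.0275) with edgeR. miR-19b-3p, miR-106b-5p, miR-93-5p, miR-25-3p and miR-92a-3p did not pass in either cell type under these scalings, although all 8 stayed below 0 and below the median of all tested microRNAs in AT2 cells. In EC 7 did, all but miR-92a-3p.

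**Figure D3:**
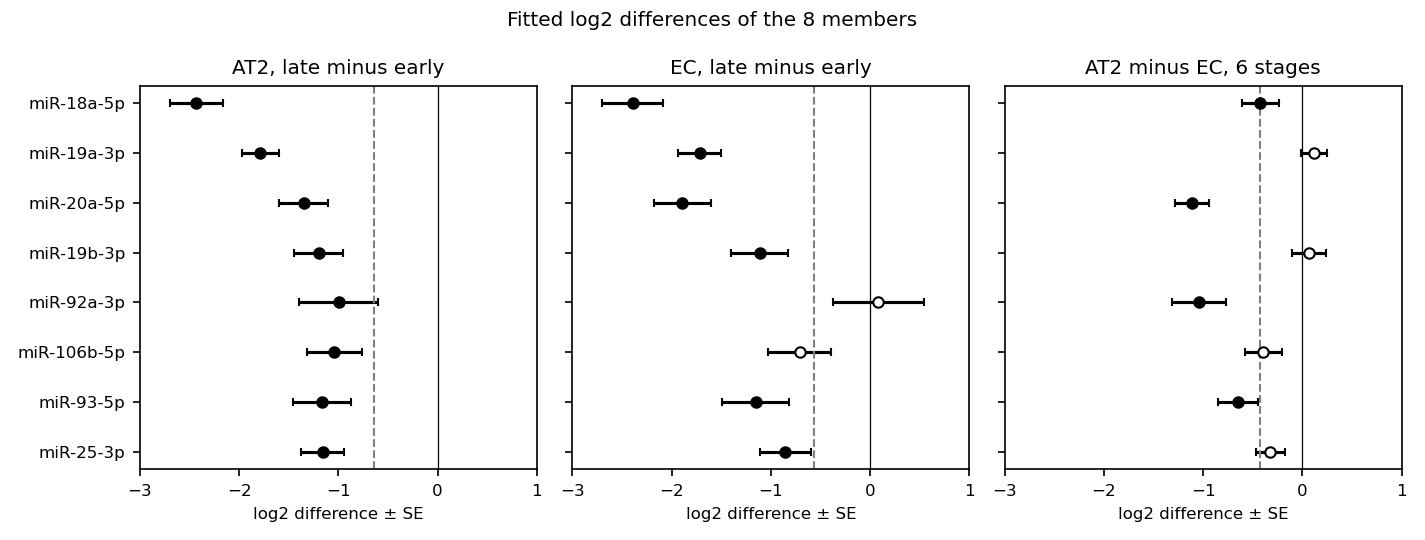
Fitted log2 differences (points) with SE (bars) of the 8 members for late minus early in AT2 cells, late minus early in EC, and AT2 cells minus EC over the 6 stages, with filled points for adjusted p under 0.05, a dashed line at the median of all 302 tested microRNAs and a thin line at 0. All 8 points lie left of the dashed line in AT2 cells, miR-92a-3p lies right of it in EC, and miR-20a-5p is the leftmost point between the cell types.

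No difference in the decline between the cell types was detected for any member. The early-to-late difference in AT2 cells minus that in EC ran from -1.08 ± 0.61 for miR-92a-3p to 0.54 ± 0.38 for miR-20a-5p. Without EC E18.5 replicate 1 these 2 ends were -0.43 and 1.01, with E16.5 as the only early stage in EC but both early stages in AT2 cells. Of the 8 members 0 passed (limma, adjusted p from 0.402 to 0.980, lowest unadjusted p 0.0919 and none under 0.05), where 6.29% of all tested microRNAs did. By edgeR with TMM factors none passed either, and none had an unadjusted p under 0.05. For miR-19a-3p the difference was -0.07 ± 0.29. For miR-18a-5p it was -0.04 ± 0.41 and 1.65 with background subtracted, with 4 of 6 late EC signals not above background, so no size is given for it.

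Averaged over the 6 stages, 4 of 8 members were called lower in AT2 cells than in EC, as were 47.7% of all tested microRNAs. Differences were below 0 for 6 of the 8, beside a median of -0.43 over all tested microRNAs. miR-20a-5p differed most, by -1.12 ± 0.17 on the log2 scale or 2.17-fold (limma, adjusted p = 1.99e-05), and was lower in the AT2 sample of 8 of the 9 shared specimen IDs. miR-19a-3p and miR-19b-3p, whose hairpins flank that of miR-20a-5p, differed by 0.11 ± 0.13 (adjusted p = 0.439) and 0.07 ± 0.17 (adjusted p = 0.721), and were each lower in AT2 cells in 4 of the 9. miR-92a-3p was lower by -1.04 ± 0.27 (adjusted p = 0.00281), a value set by signals near background that was -0.37 (adjusted p = 0.593) after background subtraction.

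miR-93-5p was lower in AT2 cells by -0.65 ± 0.20 (limma, adjusted p = 0.00873). Without EC P1 replicate 1, which drops P1 from both cell types, miR-93-5p was not called (-0.45, adjusted p = 0.0720). It was not called with median alignment (-0.30), with edgeR (-0.32) or with background subtracted (-0.49), and turned to 0.14 as shares of the microRNA total (adjusted p = 0.686). miR-18a-5p was lower by -0.42 ± 0.18 (adjusted p = 0.0486), a call lost in 16 of 23 fits that leave out 1 sample, with adjusted p up to 0.105 without AT2 P7 replicate 2. It was -0.07 with median alignment and -0.04 with edgeR, and turned to 0.36 as shares and 0.55 with background subtracted, none of them called. miR-106b-5p was at -0.39 ± 0.19 (adjusted p = 0.0708) and miR-25-3p at -0.32 ± 0.15 (adjusted p = 0.0649). With the specimen ID as a random block miR-106b-5p passed (limma, adjusted p = 0.0465). Of the 23 fits that leave out 1 sample, miR-106b-5p was called in 1, without EC P14 replicate 2 (-0.53, adjusted p = 0.00289), and was -0.26 (adjusted p = 0.113) without EC P14 replicate 1. miR-25-3p was called in 4, without EC P14 replicate 2 (-0.34, adjusted p = 0.0492), AT2 P14 replicate 1 (adjusted p = 0.0182), AT2 P28 replicate 1 (0.0486) or EC P1 replicate 1 (0.0384).

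Before birth miR-20a-5p was the member that passed. Its 4 AT2 signals (2091 to 4536) lay below its 3 EC signals (6437 to 13492), with a log2 difference of -1.44 ± 0.31 or 2.71-fold (limma, adjusted p = 0.00178). It passed with median alignment (-1.24) and edgeR (-1.06) and did not as shares (-0.49, adjusted p = 0.417). Of all tested microRNAs 28.1% were called lower in AT2 cells in this comparison and 28.8% did not overlap in that direction. At the late stages miR-20a-5p was lower by -0.90 ± 0.22 (limma, adjusted p = 0.00220), miR-92a-3p by -1.66 ± 0.35 (adjusted p = 0.000637) and miR-25-3p by -0.51 ± 0.19 (adjusted p = 0.0279). Of all tested microRNAs 47.7% were called lower there. The late call of miR-20a-5p was lost with median alignment (-0.42, adjusted p = 0.122), with edgeR (-0.42, adjusted p = 0.115) and as shares (-0.02, adjusted p = 0.953). That of miR-25-3p was lost with the first of these (-0.04) and with edgeR (-0.06), and its value turned to 0.36 as shares. For miR-92a-3p only 3 of 7 late AT2 and 1 of 6 late EC signals were above background, the mean background limit was itself 11.5 in late AT2 and 40.6 in late EC samples, and the difference was 0 with signals under 95.1 raised to that limit, so its late value cannot be read as a difference in level. The late call of miR-25-3p was lost in 5 of 23 fits that leave out 1 sample, those without AT2 P7 replicate 1 (adjusted p = 0.0780), AT2 P14 replicate 2 (0.0982), EC P7 replicate 1 (0.0793), EC P14 replicate 1 (0.0558) or EC P28 replicate 1 (0.0825).

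These differences between cell types also move with the scaling. Of all calls between AT2 cells and EC, 59 were higher and 144 lower in AT2 cells, which became 88 and 102 with median alignment and 111 and 42 as shares of the microRNA total. A single microRNA, MIMAT0000138, which the tables used here do not name, made up 2.61% ± 2.54 of an AT2 sample's counts (SD, n = 13) and 37.2% ± 6.73 of an EC sample's (SD, n = 10). Its part in the shift was not tested. As shares of the total miR-20a-5p took 1.12% ± 0.785 in AT2 cells and 1.47% ± 1.18 in EC and was not called (-0.32, adjusted p = 0.230). miR-19a-3p was then higher in AT2 cells (0.92, adjusted p = 0.00301), as it was with median alignment (0.47, adjusted p = 0.0154) and with edgeR (0.46, adjusted p = 0.0227). In each of the 6 other scalings and background treatments run, as in the main fit, miR-20a-5p had a difference below 0 and miR-19a-3p one above 0.

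The ratio of miR-20a-5p to miR-19a-3p within a sample, which no scaling factor changes, gives this for each sample. It was chosen after the values were seen and is a description. It compares readings of 2 probes, so only its differences between samples can be read. In the 13 AT2 samples it ran from 0.84 (P1 replicate 1) to 3.86 (P14 replicate 1) with a median of 1.26, and in the 10 EC samples from 2.04 (P1) to 5.28 (P28 replicate 1) with a median of 3.18. The next highest AT2 sample was at 1.70, so apart from AT2 P14 replicate 1 the cell types did not overlap. The ratio was lower in the AT2 sample of 8 of 9 shared specimen IDs. The exception was the ID of AT2 P14 replicate 1, whose EC sample (P14 replicate 2) was at 3.42. In AT2 P14 replicate 1 the share of MIMAT0000138 was 0.16%, the lowest of the AT2 samples, and in EC P14 replicate 2 it was 23.4%, the lowest of the EC samples. Set against miR-19b-3p in place of miR-19a-3p, miR-20a-5p had ratios of 1.67 to 7.59 (median 3.17) in AT2 cells and 3.01 to 13.6 (median 7.24) in EC, which overlapped, and was again lower in AT2 cells in 8 of 9 IDs.

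**Figure D4:**
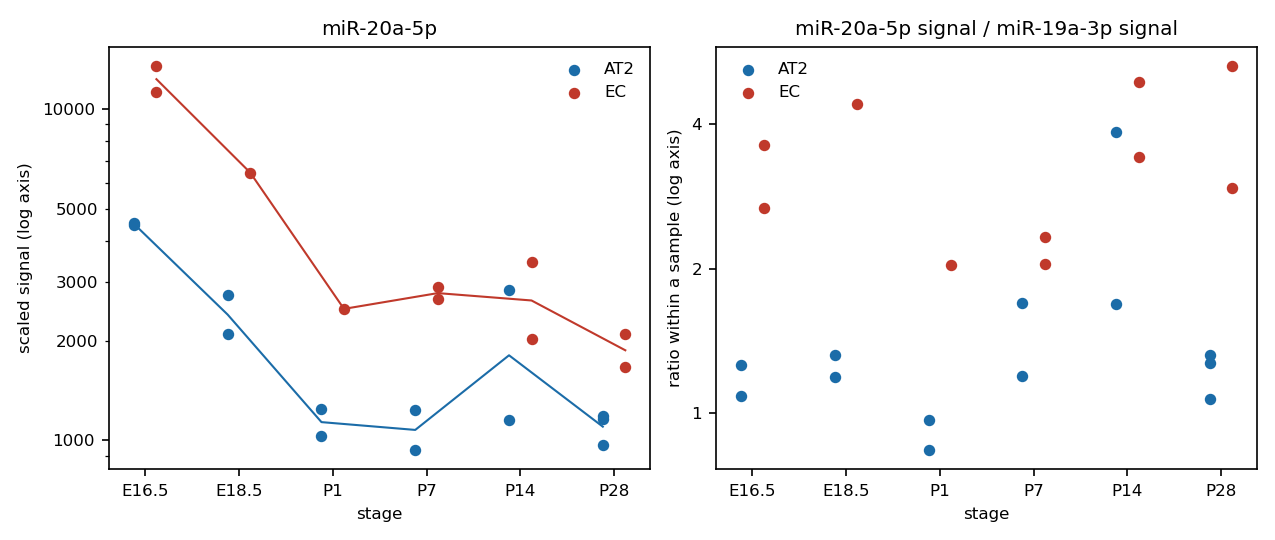
Left, the signal of miR-20a-5p (log axis) at the 6 stages, with 1 point per sample and lines through the geometric means. Right, the ratio of the miR-20a-5p signal to the miR-19a-3p signal within each sample (log axis), AT2 cells in blue and EC in red. All EC ratios are 2.04 or higher, and 12 of 13 AT2 ratios are 1.70 or lower, with AT2 P14 replicate 1 at 3.86.

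Across the 12 group means, the profiles of members were compared by Pearson's r, a description in which the stages, samples and scaling factors are shared. The most alike pairs were miR-106b-5p with miR-93-5p (r = 0.95), miR-19a-3p with miR-19b-3p (r = 0.94) and miR-18a-5p with miR-19a-3p (r = 0.94). miR-20a-5p was closer to miR-25-3p of the other cluster (r = 0.91) than to its neighbour miR-19a-3p (r = 0.70), and miR-92a-3p was least like the rest (r from 0.31 to 0.64). Of the other tested microRNAs, the one most like the mean profile of each cluster was the same, MIMAT0000385, with r = 0.96 for miR-17-92 and 0.97 for miR-106b-25. The next were MIMAT0002107 for miR-17-92 (r = 0.90) and MIMAT0000132 for miR-106b-25 (r = 0.91). The tables used here pair none of these 3 identifiers with a name. Whether any of them is a near copy or seed relative of a member, such as miR-106a-5p, could therefore not be checked.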

How the data were processed

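MicroRNAs were measured on the NanoString nCounter mouse miRNA panel, an assay that counts barcodes of hybridised probes directly, in total RNA of 23 sorted lung samples, per the labels' protocols. The build is mm10 per the submitters' processing notes. How the values were normalized is not given in the sources used here. Those deposited are a signal, the count times 1 factor per sample. Dividing by that factor gave whole counts within 0.1 for 13861 of 13861 values, 100% of those above the floor of 1 that 9 columns carry, and values at the floor were set to 1 count. A larger factor raises background equally, so microRNAs near background read higher in such samples.

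Groups follow the labelled cell type and age, and replicates were numbered in accession order. All 23 samples entered 1 limma fit (3.58.1, lmFit and eBayes with intensity trend, R 4.3.3) with 12 group means on log2(signal + 1). Two-sided p-values were adjusted by Benjamini-Hochberg over 302 microRNAs whose count exceeded the mean plus 2 SD of 8 low ERCC rows in at least 2 samples. Ratios used exact permutation tests. Alternatives changed scaling, background, filter, pseudocount (10), trend, title prefix, a random block for the specimen ID and left-out samples, and edgeR 4.0.16 tested the recovered counts, which called 192 microRNAs between the cell types. Both tools were tested on simulated data. Precision is limited by 26640 to 571706 microRNA counts per sample and by 1 to 3 samples per group. Identifiers were paired with names only for the 9 members, so 0 of the marker lists and related microRNA lists could be matched. All members are named in every comparison, and of other microRNAs those most like them. Members and lists were chosen with earlier results of these data known.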

Additional observations from a re-analysis of the deposited data

Results flagged for a closer look

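Among the 7 late AT2 samples, P14 replicate 1 stood apart for 2 members by Dixon's gap test. miR-20a-5p read 2839 there and 936 to 1236 in the other samples, a gap of 0.750 of the whole range, above the critical value for 7 samples. miR-25-3p read 2525 there and 1164 to 1613 in the other samples, a gap of 0.578. Sets of samples were checked for 24 combinations of member, cell type and period, of which these 2 were marked, and chance alone would mark about 1 in 20. For miR-20a-5p, the early-to-late differences without this sample are given with the main results. Without it the early-to-late difference of miR-25-3p in AT2 cells was -1.31. The late difference of AT2 cells minus EC was then -1.11 for miR-20a-5p and -0.66 for miR-25-3p. Averaged over the stages, AT2 cells minus EC was -1.22 for miR-20a-5p and -0.40 for miR-25-3p. Each of these values without the sample was larger in size than in the main fit.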

How the results depend on the processing

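Of 2224 comparisons of a member with its value under another setting, 2049 kept their direction and their side of the threshold, 123 kept the direction and no longer passed, 37 passed only under the other setting and 15 turned direction. The cause was not tested for any of these. For AT2 versus EC the tally holds only miR-20a-5p before birth and only miR-20a-5p, miR-25-3p and miR-92a-3p late. For the decline in AT2 cells minus that in EC it holds miR-20a-5p and miR-92a-3p, and of the steps only E16.5 to E18.5. Over all 8 members, AT2 minus EC before birth was below 0 for 6 in the main fit and 1 as shares. Late it was so for 6, against 3 with a median shift and 2 as shares. The decline in AT2 cells minus that in EC had 7 below 0, against 3 with a median shift. Of the turned values in the tally, those of miR-18a-5p and miR-93-5p between cell types came from called differences (-0.42 and -0.65). That of miR-25-3p late came from a called -0.51. miR-25-3p, AT2 minus EC, was 0.027 with a median shift, 0.48 as shares of all counts and 0.045 with edgeR, and its late difference was 0.36 as shares. As shares, miR-106b-5p had 0.40, miR-18a-5p 0.36 and miR-93-5p 0.14, and with background subtracted miR-18a-5p had 0.55. The EC step of miR-25-3p from E16.5 to E18.5 was 0.0042 with quantile scaling. For miR-92a-3p, EC late minus early was -0.12 with the title prefix as a term. It ran from -0.56 (without EC E18.5 replicate 1, so with E16.5 as the only early stage) to 0.34 (without EC P14 replicate 2). The next values are also of miR-92a-3p. Its AT2 step from E16.5 to E18.5 ran from -0.73 to 0.17 (without AT2 E16.5 replicate 1). For miR-19b-3p, AT2 minus EC ran from -0.012 (without EC P7 replicate 2) to 0.15.

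Counts of called microRNAs moved more. AT2 versus EC called 203, against 110 with a common floor and 467 with no filter, before birth 135 against 87 as shares, 85 with the floor and 310 with no filter, and late 191 against 80 with the floor and 391 with no filter. AT2 late versus early called 155, against 86 with the floor. EC late versus early called 28 higher and 84 lower, against a total of 55 as shares, 72 with edgeR, 72 with the floor and 192 with no filter. The difference of the differences called 19, against 2 as shares, 12 with edgeR, 47 with the floor and 31 without 3 EC samples. AT2 neighbouring stages called 36, against 21 as shares, 66 with edgeR, 16 with background subtracted, 57 with the floor, 149 with no filter, 12 with the title prefix, 96 without 3 EC samples and 96 without the P14 pair. EC neighbouring stages called 13, against 8 with a median shift, 21 with quantile scaling, 0 as shares, 46 with background subtracted, 42 with the floor, 197 with no filter, 31 with a pseudocount of 10, 7 without 3 EC samples and 24 without the P14 pair (AT2 replicate 1 and EC replicate 2, a setting chosen after seeing the data). Any stage called 148 in AT2 cells, against 93 with background subtracted and 85 with the floor, and 82 in EC, against 38 as shares and 189 with no filter.

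Leaving out each sample in turn gave 185 to 212 for AT2 versus EC, 93 to 141 before birth, 115 to 167 for AT2 late versus early, 66 (without EC E16.5 replicate 2) to 123 for EC late versus early, 9 (without AT2 E16.5 replicate 1) to 25 for the difference of the differences, 8 (without AT2 E18.5 replicate 2) to 76 for AT2 neighbouring stages, 8 (without EC P1 replicate 1) to 57 for EC neighbouring stages, 116 to 164 for AT2 any stage and 51 (without EC E16.5 replicate 2) to 105 for EC any stage. The late count of AT2 versus EC moved by less than 1.5 times.

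The split of higher and lower calls moved with the scaling. AT2 late versus early had 34 higher and 121 lower, against 77 and 48 with a median shift, 64 and 65 with edgeR and 62 and 65 with quantile scaling. EC late versus early had 52 and 23, 47 and 25, and 47 and 44 under the same 3 settings. AT2 versus EC before birth had 50 and 85, against 70 and 17 as shares, and late 47 and 144, against 79 and 84 with a median shift and 92 and 37 as shares.

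The log2 ratio of miR-25-3p to miR-106b-5p, late minus early in EC, was 0.0073 with background subtracted, and AT2 minus EC -0.020. Without each sample in turn it ran from -0.46 to -0.046 in AT2 cells, from -0.29 to 0.19 in EC and from -0.077 to 0.15 for AT2 minus EC. No alternative was run for a ratio to miR-17-5p, which has no row of its own. Of the 5 microRNAs most like miR-17-92, 3 stayed among the 5 with quantile scaling, 2 as shares, 2 with edgeR, 3 with background subtracted and 1 with the floor. For miR-106b-25, 3 stayed with a median shift, 2 with quantile scaling and 3 with the floor. With the median shift, 5 members in AT2 cells and 4 in EC had both E16.5 samples above every later sample, and with edgeR's scaling 6 and 5, all chosen after seeing the data.

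Samples of one specimen ID share a number, and the pairing was checked by the correlation of their deviations from the group means. It was -0.020 in 1 of 7 pairs and 0.210 to 0.308 in the others. At E16.5 and P7 both groups have 2 samples, so the 2 pairs of a stage give the same value by construction (0.274 and 0.281) and are not separate readings. With the specimen ID as a replicate block, AT2 versus EC called 213, EC neighbouring stages 25, and miR-106b-5p passed for AT2 minus EC (-0.39, adjusted p = 0.0465, limma), and no other member's call changed. Depth limits miR-92a-3p in every stage and miR-18a-5p in the late stages.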
